A study of Mus musculus with 12 samples.

Results

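The genes described here are the solute carriers (Slc genes) that macrophages grown from mouse bone marrow expressed at a measurable level before and after lipopolysaccharide (LPS), the outer-membrane component of Gram-negative bacteria that Toll-like receptor 4 detects. They were chosen by symbol (Slc followed by a digit) and by array intensity, which had to average at least 100 in at least 1 of the 4 groups of cultures, and 8 genes (Slc2a1, Slc7a1, Slc7a2, Slc7a11, Slc11a1, Slc11a2, Slc39a14 and Slc40a1) were left out by name. This gave 158 members of the 347 Slc genes named on the platform and of 18193 genes in all, with 181 Slc genes below the threshold in every group. Of the 158, 126 reached the threshold in 4 groups, 17 in 3, 5 in 2 and 10 in 1, so a gene let in by 1 group had to be lower elsewhere. Just inside the threshold were Slc24a3, whose highest group mean was 100.2, and Slc7a4, at 111.8; just outside were Slc5a2, at 97.5, and Slc9b2, at 97.4.

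The cells were C57Bl/6 bone marrow cells differentiated in M-CSF, the growth factor that drives macrophage formation, and the labels give 3 biological replicates per group (letters A, B and C), hence 12 arrays. Restimulated cultures had 18 h of LPS at 100 ng/ml, new medium, a rest of 2 h and then LPS at 100 ng/ml again. Pretreated cultures had the 18 h of LPS and the rest but no second dose. Cultures given LPS once had no pretreatment and received LPS only after the medium change and rest, and untreated cultures received none. How long the final LPS exposure lasted is not given, and neither are the mice or the marrow that each letter stands for.

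Solute carriers are membrane proteins that move nutrients, ions, metals, vitamins and metabolites down gradients or by coupling to protons, sodium or a counter-substrate. Families carry numbers: SLC2 transports sugars, SLC7 amino acids, SLC16 lactate and other monocarboxylates, and SLC25 the metabolites of the inner mitochondrial membrane. SLC30 and SLC39 move zinc out of and into the cytosol, SLC31 copper, and SLC35 nucleotide sugars into the Golgi. Some SLC7 members are light chains that pair with the heavy chain Slc3a2. In macrophages, which digest engulfed cells and microbes, carriers of the lysosomal membrane export the amino acids, sugars, nucleosides and heme that digestion releases. LPS is known to shift macrophages toward glycolysis with lactate export and to change how they hold iron, zinc and copper.

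All 8 macrophage markers (among them Csf1r, Adgre1 and Cd68) were above the threshold on average, and their summed intensity lay between 55480 and 65190 on every array. Single markers moved within that sum. Mertk averaged 1669 in untreated and 137.2 in LPS once cultures, and Itgam 2108 in LPS once and 5157 in restimulated cultures. Markers of T, B and NK cells, mast cells, erythroid cells and progenitors summed to 255.0 at most. Fibroblast markers summed to 2388 to 8006 on the A and B arrays and to 202.0 to 284.3 on the C arrays. The neutrophil list, carried by S100a8 and S100a9, ranged from 417.7 on the untreated A array to 4547 on the pretreated B array. Mpo and Elane stayed at or below 33.7, while Camp ranged from 33.9 on the untreated A array to 217.8 on the restimulated C array. In bulk RNA, fewer cells of a type and less RNA per cell cannot be told apart. Array means lay between 310 and 317 except on the restimulated C array, at 246.7. Over the members that array lay a median of 0.50 log2 units below the mean of the restimulated A and B arrays and was lower for 137 of 158, so results of restimulated cultures are also given without it.

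Expression was compared on log2(intensity + 16) with limma, and a gene is said to be called, or to have risen or fallen, where the Benjamini-Hochberg adjusted p over all 18193 genes was under 0.05 and the change at least 2-fold; errors after ± are limma's standard errors, with n = 3 arrays per group. The 5 comparisons were the first response (LPS once minus untreated), the effect of pretreatment (pretreated minus untreated), the second response (restimulated minus pretreated), the level after LPS (restimulated against LPS once cultures) and the interaction, which subtracts the first response from the second. The comparisons share groups of arrays with each other. In all, 48 members were called in at least 1 comparison and 110 in none. Each gene is read from its brightest probe set. Where a called member had another probe set at the threshold, those others were called too, with p-values adjusted over all probe sets, in 8 of 15 members in the first response, 1 of 1 in the pretreatment effect, 0 of 3 in the second response, 1 of 4 in the interaction and 1 of 8 in the level after LPS. For called members, other probe sets that were not called are given beside the genes. The exceptions are Slc25a36 and Slc7a7 in the first response, where the other probe set was close in size (-1.04 and 1.05) and not called. Probe sets that were called too could differ in size, and not all are given. Examples in the first response are Slc43a2 (-2.53 and -1.89, against -3.05), Slc31a1 (1.26, against 1.74) and Slc27a1 (-1.69, against -1.17).

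In the first response 11 members rose and 32 fell. The 11 that rose are 6.96% of the members, against 3.92% of all genes and 7.77% of the 8940 genes at the same intensity threshold. The 32 that fell are 20.3% of the members, against 9.16% of all genes and 17.9% of the genes at the same threshold. Both shares are thus near those of genes of like intensity, and what follows describes which carriers they were. Of the 32 falls, 20 were in members at the threshold in all 4 groups, as were 10 of the 11 rises. The other members that fell were below the threshold in at least 1 group. The median member had a log2 change of -0.46, against -0.28 for genes at the same threshold. The direction split depends on the scaling of the arrays. Genes of mid-range intensity sat lower on the LPS once arrays, at median log2 values of 8.143 to 8.254, than on the untreated arrays, at 8.519 to 8.556. Scaling the arrays to the same mid-range median moved the median change of all genes to 0.38, against 0.04 without it, and turned the split of members called to 22 higher and 20 lower. The 11 that rose stayed called under that scaling, and 12 of the falls of smaller size did not.

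**Figure D1:**
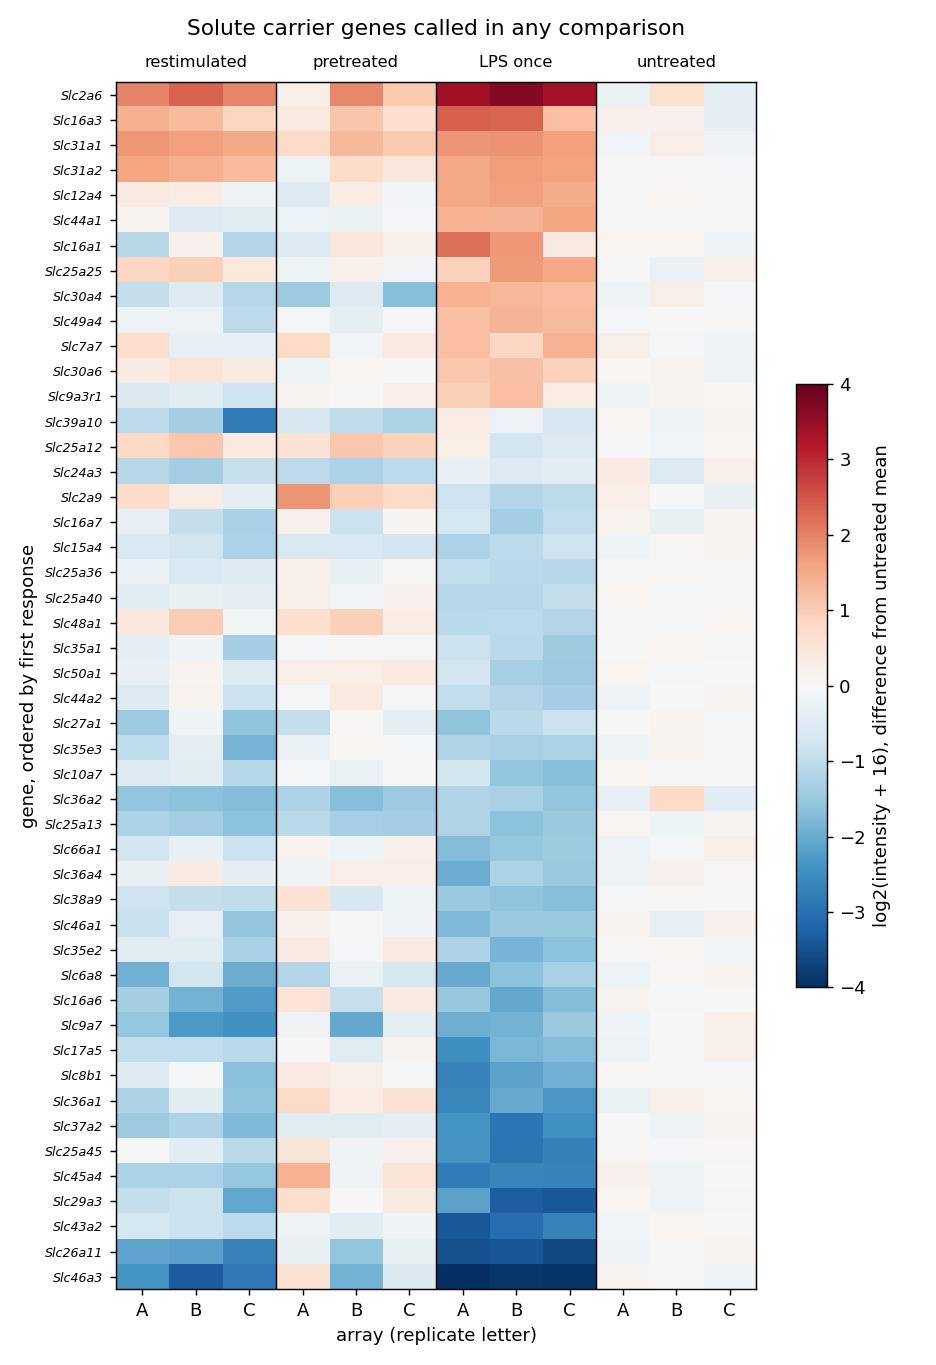
The 48 solute carrier genes called in any comparison are drawn as a row each and the 12 arrays as a column each, with color giving the difference of log2(intensity + 16) from the mean of the 3 untreated arrays of that gene. Red at the top marks genes with higher and blue at the bottom genes with lower levels on the LPS once arrays. Of the genes called in LPS once against untreated cultures, 17 were called the opposite way in restimulated against LPS once cultures. Both comparisons use the LPS once arrays with opposite sign, which favours opposite calls, and the share over all genes was not counted.

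Copper carriers rose together and are neighbours in the genome. Slc31a1 encodes the high-affinity copper importer Ctr1 of the plasma membrane, and Slc31a2 its low-affinity relative Ctr2, found on intracellular membranes. Slc31a1 had intensities of 2080.0, 2114 and 1879 in LPS once cultures, against 548, 718 and 534 in untreated cultures, a log2 fold change of 1.74 ± 0.15 (limma adjusted p = 3.48e-05). Slc31a2 had 3253, 3486 and 3340.0 in LPS once cultures, against 1116, 1124 and 1038 in untreated cultures, a log2 fold change of 1.61 ± 0.19 (adjusted p = 0.00022). For both, every LPS once array was well above every untreated array. The pair lies on chromosome 4 with 1 protein-coding gene, Fkbp15, between them in the RefSeq annotation of GRCm38.p6. Of the 7 pairs of members of the same chromosome with at most 2 protein-coding genes between them, this pair and the adjacent Slc36a1 and Slc36a2 were the ones in which both genes were called in the first response. Of these genes, Slc36a2 reached the threshold in untreated cultures alone.

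The 250 bases before the annotated start of each copper carrier are shown because the pair moved together, at chr4:62360451-62360700 on the plus strand for Slc31a1 and chr4:62286179-62286428 on the plus strand for Slc31a2 (RefSeq, GRCm38.p6). They were searched on both strands for CACGTG (the E-box bound by the MiT/TFE family and by Myc), the kappaB consensus, TGANTCA (AP-1 letters) and TGATGNAA (amino acid response letters). None of these letters occurs in either stretch, so no base is in capitals, which says only that the letters are not there.
Slc31a1: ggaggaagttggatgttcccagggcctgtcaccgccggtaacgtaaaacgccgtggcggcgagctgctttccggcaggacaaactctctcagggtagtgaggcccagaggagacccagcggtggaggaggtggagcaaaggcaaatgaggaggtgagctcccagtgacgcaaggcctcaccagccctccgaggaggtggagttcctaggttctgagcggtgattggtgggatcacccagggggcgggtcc
Slc31a2: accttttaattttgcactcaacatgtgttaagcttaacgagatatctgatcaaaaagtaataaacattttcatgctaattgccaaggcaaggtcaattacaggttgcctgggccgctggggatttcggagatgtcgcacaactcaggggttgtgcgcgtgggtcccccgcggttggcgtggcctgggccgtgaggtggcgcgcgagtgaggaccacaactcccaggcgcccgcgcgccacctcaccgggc

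Among the other metal carriers, the zinc exporters Slc30a4 and Slc30a6 of intracellular compartments rose, while others of the family were not called. Slc30a4 (ZnT4, which loads zinc into vesicles) had 684, 648 and 601 in LPS once cultures, against 221, 297 and 235 in untreated cultures (1.32 ± 0.28 on the log2 scale, adjusted p = 0.00512). Slc30a6 (ZnT6, which works in the Golgi as a partner of ZnT5) had 1015, 1099.7 and 913 in LPS once cultures, against 497, 525 and 411 in untreated cultures (1.06 ± 0.11). In both genes the groups did not overlap. ZnT5 itself, Slc30a5, had 835, 759.8 and 846 in LPS once cultures, against 1494, 1468 and 1583 in untreated cultures, the other way but short of 2-fold (-0.89 ± 0.15, adjusted p = 0.00132). Neither Slc30a7 (0.39, and -0.52 on its other probe set) nor Slc30a3 (0.32), both of intracellular membranes, was called. The plasma membrane zinc exporter Slc30a1 did not pass, with 496, 198 and 272 in LPS once cultures, against 628, 548 and 619 in untreated cultures (-0.96 ± 0.36, adjusted p = 0.0677). The zinc importer Slc39a1 had a log2 change of 0.28 ± 0.14 (adjusted p = 0.154), and no member of the SLC39 zinc importers was called in the first response. Slc48a1, the heme carrier Hrg1 that moves heme out of the phagolysosome, fell to 926, 937 and 859 in LPS once cultures, against 1936, 1854 and 2084 in untreated cultures (-1.10 ± 0.25); after mid-range scaling it was at -0.76 and no longer called. A second Slc48a1 probe set, of about the same brightness, had a log2 change of -0.49 and was not called, so the fall depends on the probe set. Of the 22 metal and heme carriers, 4 rose and 1 fell.

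Sugar carriers included the member with the greatest rise. Slc2a6, the hexose transporter family member Glut6 of lysosomal membranes, had 1697, 2094 and 1645 in LPS once cultures, against 121, 233 and 113 in untreated cultures, a log2 fold change of 3.47 ± 0.39 (adjusted p = 0.000152). Its lowest LPS once array was far above its highest untreated array. Slc37a2, a glucose 6-phosphate and phosphate exchanger of the endoplasmic reticulum, fell to 608, 432 and 601 in LPS once cultures, against 3322, 2928 and 3604 in untreated cultures (-2.56 ± 0.16, adjusted p = 8.2e-06). Slc45a4, of a family linked to proton-coupled sugar transport, had 105, 118 and 115 in LPS once cultures, against 923, 727 and 830.3 in untreated cultures (-2.71 ± 0.30). Both falls left the groups far apart, and the dimmer probe sets of Slc45a4 were at -1.03, called, and -0.58, not called. The Golgi sugar carrier Slc50a1 (-1.17) and the urate transporter Slc2a9 (-1.01) also fell but were not called after mid-range scaling, and Slc2a9 kept its call in 8 of the 12 fits that each left out 1 array. The glucose transporter Slc2a3 (Glut3) had 36.9, 171 and 82.3 in LPS once cultures, against 181, 270.5 and 266 in untreated cultures, which did not pass (-1.34 ± 0.55, adjusted p = 0.0863) except with the replicate letter as a block (adjusted p = 0.0153). Of the 12 sugar carriers, 1 rose and 4 fell.

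Carriers of the SLC16 family, of which not all carry lactate, differed among themselves. Slc16a3, the lactate exporter Mct4 of glycolytic cells, had 522, 502 and 224 in LPS once cultures, against 103, 101 and 62.9 in untreated cultures (1.98 ± 0.32, adjusted p = 0.0013). Slc16a1, the lactate and pyruvate carrier Mct1, had 1082, 788 and 289 in LPS once cultures, against 235, 239 and 198 in untreated cultures (1.43 ± 0.50, adjusted p = 0.0504). It was called with the letter as a block (adjusted p = 0.0353) and after mid-range scaling (1.77). For both genes the C array was the lowest of the LPS once arrays, and still above every untreated array. Slc16a6, an Mct relative, fell to 109, 71.1 and 92.2 in LPS once cultures, against 368, 324 and 334 in untreated cultures (-1.76 ± 0.36). Slc16a7 (Mct2) had a smaller fall of -1.01 ± 0.33 that kept its call in 7 of the 12 fits without 1 array. Both Slc16a6 and Slc16a7 reached the threshold in untreated and pretreated cultures only. Slc16a10 was higher short of 2-fold (0.79 ± 0.17, adjusted p = 0.00528), and called after mid-range scaling (1.13). Its other probe sets at the threshold were at 1.14 and 1.82, called, and 0.96, not called. Of the 7 members classed by family as monocarboxylate and dicarboxylate carriers, 1 rose and 2 fell.

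The amino acid and peptide carriers held the most falls of any class by count, 7 of 21 members, with 1 rise. By share they did not stand out, since 4 of 12 sugar carriers and 3 of 7 lipid, choline and acetyl-CoA carriers fell. Among genes at the same threshold 17.9% fell. Slc43a2 encodes Lat4, a sodium-independent carrier of branched-chain amino acids, phenylalanine and methionine. It had 494, 631 and 824 in LPS once cultures, against 5026, 5744 and 5404 in untreated cultures, a log2 fold change of -3.05 ± 0.17 (adjusted p = 5.18e-06). Slc36a1 encodes Pat1, which exports small amino acids from the lysosome with protons, and had 111, 170.3 and 136 in LPS once cultures, against 620.2, 847 and 775 in untreated cultures (-2.31 ± 0.27, adjusted p = 0.000187). The LPS once arrays were well below the untreated arrays in both. Its neighbour Slc36a2 (Pat2) fell to 50.2, 45.8 and 35.6 in LPS once cultures, against 107, 246 and 95.3 in untreated cultures (-1.36 ± 0.28), and its relative Slc36a4 to 222, 373 and 319.6 in LPS once cultures, against 790.1, 1033 and 950.4 in untreated cultures (-1.57 ± 0.23). Slc36a2 reached the threshold only in untreated cultures, where 1 array was at 246. Being lower elsewhere is part of how it became a member, so nothing is read from its test.

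Other amino acid carriers of the lysosomal membrane also fell. They were Slc38a9, the arginine-sensing carrier upstream of mTORC1 (-1.59 ± 0.24), Slc66a1, an exporter of cationic amino acids (-1.56 ± 0.18), and Slc15a4, a histidine and peptide carrier that also scaffolds endosomal Toll-like receptor signaling (-1.05 ± 0.17; -0.72 and not called after mid-range scaling). Slc15a3, the close relative of Slc15a4, moved the other way, with 5954, 5688 and 5858 in LPS once cultures, against 2859, 3185 and 3569 in untreated cultures, at an adjusted p of 0.00102 but short of 2-fold (0.87 ± 0.14). After mid-range scaling Slc15a3 was at 1.2 and called. The rise was in Slc7a7, a light chain that exchanges cationic for neutral amino acids, with 1505, 1160.5 and 1724 in LPS once cultures, against 762, 606 and 586 in untreated cultures (1.14 ± 0.30, adjusted p = 0.0169), which kept its call in 9 of the 12 fits without 1 array. Its partner, the heavy chain Slc3a2, had 3929.8, 5872 and 6215 in LPS once cultures, against 4010.2, 4176 and 4772 in untreated cultures (0.28 ± 0.18, adjusted p = 0.253). The light chain Slc7a5 (Lat1) had 181, 666 and 941 in LPS once cultures, against 85.4, 184 and 158 in untreated cultures. Each letter of Slc7a5 was higher after LPS, but the A arrays were low in both groups, and the call came only with the letter as a block (1.73 ± 0.65, adjusted p = 0.0675 without and 0.002 with it). The glutamine carrier Slc1a5 (-0.27 ± 0.33) and the light chains Slc7a6 (-0.03 ± 0.33) and Slc7a8 (-0.09 ± 0.15) did not pass.

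The 250 bases before the start of Slc36a1 (RefSeq, GRCm38.p6, chr11:55204090-55204339 on the plus strand) are shown because they hold a CACGTG E-box, here in capitals, starting at position -31 from the gene's start. The same was done for Slc25a13, described next (chr6:6217174-6217423 on the minus strand), where CACGTG and TGANTCA overlap and the capitals mark both.
Slc36a1: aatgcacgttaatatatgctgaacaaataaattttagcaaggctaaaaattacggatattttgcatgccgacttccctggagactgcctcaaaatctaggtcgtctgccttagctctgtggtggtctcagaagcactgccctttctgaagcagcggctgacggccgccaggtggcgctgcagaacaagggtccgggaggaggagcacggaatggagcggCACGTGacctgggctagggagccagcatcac
Slc25a13: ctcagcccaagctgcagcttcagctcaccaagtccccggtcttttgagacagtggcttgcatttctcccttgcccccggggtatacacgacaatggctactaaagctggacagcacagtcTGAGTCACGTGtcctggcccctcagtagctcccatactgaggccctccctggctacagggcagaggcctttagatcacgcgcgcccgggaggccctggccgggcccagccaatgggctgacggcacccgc
Counted over windows from 250 bases before to 50 after the start, CACGTG occurred in 25 of the 122 members that have such a window, which is 20.5%. It occurred in 12.6% of the 7357 genes at the same intensity threshold with a window, in 8.09% of all genes with a window and in 7.15% of all windows. Among members with a window it was in 5 of 23 that fell and in 2 of 11 that rose in the first response. The kappaB consensus was in 14 of the 122 members (11.5%, against 6.33% of genes at the same threshold), TGANTCA in 9 (7.38%, against 6.27%) and TGATGNAA in 4 (3.28%, against 2.76%). A match of letters is a description and was not tested as a binding site.

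Mitochondrial carriers had 4 falls and 1 rise among 30. Slc25a13 encodes citrin, the aspartate and glutamate carrier of the malate-aspartate shuttle, and had 91.9, 64.7 and 72.9 in LPS once cultures, against 248, 206 and 252 in untreated cultures (-1.45 ± 0.14, adjusted p = 7.34e-05). Its paralog Slc25a12 did not pass (-0.36 ± 0.26). Slc25a45, of the mitochondrial carrier family, fell to 216, 141 and 166 in LPS once cultures, against 1203, 1100.0 and 1212 in untreated cultures (-2.66 ± 0.26, adjusted p = 6.65e-05). Slc25a13 reached the threshold in untreated cultures alone, so being lower elsewhere is part of how it became a member, and nothing is read from its test. In Slc25a45 every LPS once array was lower than every untreated array by a wide gap. Slc25a36, a pyrimidine nucleotide carrier (-1.06), and Slc25a40 (-1.08) fell by little more than 2-fold, and neither was called after mid-range scaling. Slc25a25, the calcium-regulated carrier of ATP-Mg and phosphate, rose to 268, 479 and 425 in LPS once cultures, against 138, 109 and 163 in untreated cultures (1.39 ± 0.23).

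Several other mitochondrial carriers did not reach 2-fold. The ADP/ATP carrier Slc25a5 had 4064, 3593 and 4073 in LPS once cultures, against 4647, 4849 and 4837 in untreated cultures (-0.29 ± 0.08), and the phosphate carrier Slc25a3 a log2 change of -0.21 ± 0.09. The citrate carrier Slc25a1 (-0.19 ± 0.37, adjusted p = 0.712) did not pass. The carnitine carrier Slc25a20 (-0.74 ± 0.12, adjusted p = 0.00143) and the glutathione carrier Slc25a39 (-0.90 ± 0.09, adjusted p = 6e-05) were lower at an adjusted p under the threshold without reaching 2-fold, though another Slc25a39 probe set was called, at -1.10. The oxoglutarate carrier Slc25a11 (-0.89 ± 0.14, adjusted p = 0.00107), the partner of citrin in the malate-aspartate shuttle, was lower short of 2-fold too. The iron carrier mitoferrin 1, Slc25a37, was higher by 0.84 ± 0.25 (adjusted p = 0.0292), again short of 2-fold.

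Nucleoside and vitamin carriers included the greatest fall of any member. Slc46a3, a lysosomal relative of the folate transporter, had 31.0, 39.1 and 38.2 in LPS once cultures, against 877, 829 and 714 in untreated cultures, a log2 fold change of -3.98 ± 0.50 (adjusted p = 0.000283). The LPS once values are close to the array medians of 29.72 to 31.65, so the size of that fall is limited by the lower end of the scale. The proton-coupled folate transporter itself, Slc46a1, fell to 40.6, 52.9 and 52.7 in LPS once cultures, against 197, 139 and 204 in untreated cultures (-1.59 ± 0.27). Slc29a3, the lysosomal nucleoside exporter Ent3, fell to 160.3, 62.8 and 57.1 in LPS once cultures, against 804, 685 and 778 in untreated cultures (-2.94 ± 0.39, adjusted p = 0.000404). A dimmer Slc29a3 probe set, whose highest group mean was 116, was at -0.48 and not called. The plasma membrane nucleoside carrier Slc29a1 (Ent1) did not pass (-0.08 ± 0.38, adjusted p = 0.887). Of the 10 in the class, 3 fell and none rose.

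Among ion carriers, the potassium-chloride cotransporter Slc12a4 (Kcc1, which regulates cell volume) rose to 1101, 1174 and 1064 in LPS once cultures, against 359.8, 391 and 351 in untreated cultures (1.56 ± 0.19, adjusted p = 0.000256). The sulfate carrier Slc26a11 fell to 52.1, 55.0 and 46.9 in LPS once cultures, against 669, 757 and 829 in untreated cultures (-3.51 ± 0.30, adjusted p = 3.86e-05). Both pairs of groups were far apart, and the Slc26a11 values after LPS approached the lower end of the scale. The mitochondrial sodium-calcium exchanger Slc8b1 (-2.25 ± 0.35) and the sodium-proton exchanger Slc9a7 of the trans-Golgi network (-1.78 ± 0.44) fell as well, while the phosphate importer Slc20a1 did not pass (0.63 ± 0.38, adjusted p = 0.232). Of the 15 in the class, 1 rose and 3 fell.

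The remaining calls lay in 4 classes. Slc44a1, a choline transporter, rose to 5106, 4973 and 5761 in LPS once cultures, against 1937, 1889.9 and 1926 in untreated cultures (1.45 ± 0.14, adjusted p = 7.56e-05), but its other probe set above the threshold had a log2 change of -0.25. Its relative Slc44a2 fell (-1.17 ± 0.23), as did the fatty acid transporter Slc27a1 (-1.17 ± 0.38, called in 5 of the 12 fits without 1 array) and Slc10a7 (-1.33 ± 0.25), and none of these 3 was called after mid-range scaling. Of the 11 carriers of organic ions and osmolytes, the creatine transporter Slc6a8 (-1.65 ± 0.35) and the lysosomal sialic acid exporter Slc17a5, or sialin (-2.00 ± 0.21, adjusted p = 9.88e-05), fell, but the other Slc6a8 probe set was at -0.73 and not called. The taurine transporter Slc6a6 had 3333, 3879 and 4033 in LPS once cultures, against 5536, 6515 and 6310.4 in untreated cultures, short of 2-fold (-0.71 ± 0.13). Of the 19 members of the nucleotide sugar family SLC35, 3 fell and none rose, namely Slc35e2 (-1.59), Slc35e3 (-1.25) and the CMP-sialic acid carrier Slc35a1 (-1.12), of which Slc35e2 was still called after mid-range scaling. Slc49a4, a lysosomal membrane protein whose substrate class was not assigned, rose to 478, 542 and 505 in LPS once cultures, against 193, 204 and 206 in untreated cultures (1.27 ± 0.20).

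**Figure D2:**
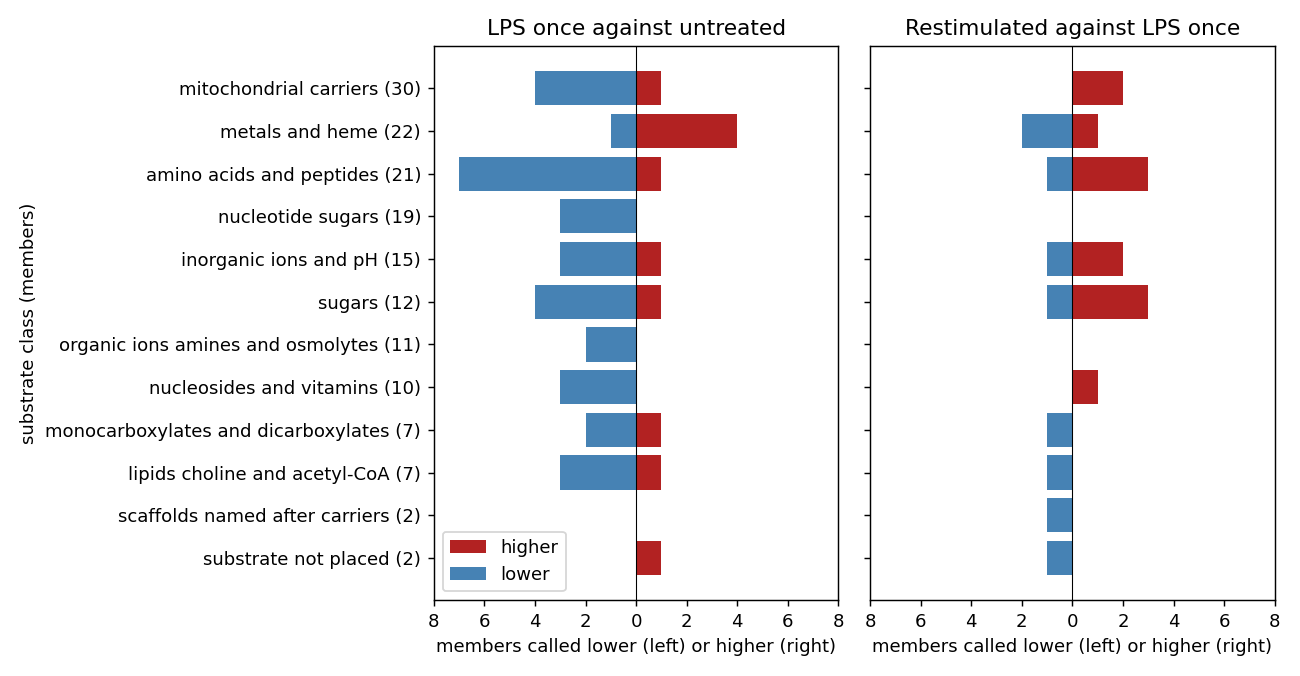
Bars give, for each substrate class with its number of members in brackets, how many were called higher (right) and lower (left) in LPS once against untreated cultures and in restimulated against LPS once cultures. Falls outnumbered rises in most classes of the first panel, with metals and heme at 4 higher and 1 lower. The second panel has rises where the first has falls in the amino acid, sugar and mitochondrial classes, and both panels use the LPS once arrays with opposite sign.

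Read by place in the cell, 12 members were listed as carriers of the lysosomal membrane (Slc2a6, Slc15a3, Slc15a4, Slc17a5, Slc29a3, Slc36a1, Slc38a7, Slc38a9, Slc46a3, Slc48a1, Slc49a4 and Slc66a1). That list was put together after their values were seen and may leave out other members of that membrane. Its counts and shares are therefore a description, were not tested and cannot show that such carriers stand out. In the first response 2 of them rose, 16.7%, against 7.77% of genes at the same threshold, and 8 fell, 66.7%, against 17.9%. Their median log2 change was -1.33, against -0.28 for genes at the same threshold, and after mid-range scaling 3 were higher and 6 lower. Slc38a7, a lysosomal glutamine exporter, did not reach 2-fold (-0.85 ± 0.28). The falls include Slc48a1 and Slc29a3, whose other probe sets were not called. In the second response 3 of the 12 fell, 25%, against 2.64% of genes at the same threshold. Of those 3, Slc36a1 alone was still called without the restimulated C array. In the level after LPS 3 were higher, 25%, against 5.10%, and 2 were lower, 16.7%, against 6.36%.

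Pretreatment left few members changed. After 18 h of LPS and the rest, 1 member was higher, 0.633% of the members, against 0.297% of all genes and 0.604% of genes at the same threshold, and 3 were lower, 1.90% of the members, against 0.319% of all genes and 0.604% at the same threshold. The copper importer Slc31a1 was higher, with 1014, 1478 and 1254 in pretreated cultures, against 548, 718 and 534 in untreated cultures (1.03 ± 0.15, adjusted p = 0.0117). The groups did not overlap, but the call was kept in 8 of the 12 fits without 1 array, and its neighbour Slc31a2, with 954, 1835 and 1493 in pretreated cultures, did not pass (0.33 ± 0.19).

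Citrin, Slc25a13, was among the 3 members called lower in pretreated cultures, though not with a pseudocount of 64. Slc25a13 had 104, 84.7 and 80.3 in pretreated cultures, against 248, 206 and 252 in untreated cultures (-1.25 ± 0.14, adjusted p = 0.00353), and stayed called whichever array was left out. Slc36a2 (-1.46 ± 0.28, adjusted p = 0.0479) and the sodium-calcium exchanger Slc24a3 (-1.13 ± 0.21, adjusted p = 0.047) were also lower. These 3 genes reached the intensity threshold in untreated cultures alone. Being lower elsewhere is part of how they became members, so nothing is read from their tests. Slc36a2 and Slc24a3 were each called in 2 of the 12 fits without 1 array. With the replicate letter as a block, the urate transporter Slc2a9 was called higher (1.17, adjusted p = 0.018) and the zinc exporter Slc30a4 lower (-1.22, adjusted p = 0.0227). Slc2a9 had 406, 224 and 195 in pretreated cultures, against 134, 109 and 85.0 in untreated cultures, and Slc30a4 had 82.5, 169 and 65.3 in pretreated cultures, against 221, 297 and 235 in untreated cultures. In neither gene did the groups overlap.

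The second LPS dose, set against pretreated cells, raised 1 member, 0.633%, against 0.665% of all genes and 1.34% of genes at the same threshold, and lowered 7, 4.43%, against 1.32% of all genes and 2.64% at the same threshold. Slc31a2 rose to 3315, 2974 and 2665 in restimulated cultures, against 954, 1835 and 1493 in pretreated cultures (1.10 ± 0.19, adjusted p = 0.0167). Every restimulated array was above every pretreated array, and the call was lost without the pretreated A or C or the restimulated A array; its other probe set had 1.21 and was not called. Slc31a1 had 2006, 1903 and 1732 in restimulated cultures, against 1014, 1478 and 1254 in pretreated cultures, and did not pass (0.60 ± 0.15, adjusted p = 0.0542).

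The 7 members that fell in the second response had fallen in the first as well, which is a description because both comparisons were read over the same members. Of the 7, 3 were at the threshold in all 4 groups. Slc36a1 had 309, 524 and 232 in restimulated cultures, against 1262, 904 and 1109 in pretreated cultures (-1.64 ± 0.27, adjusted p = 0.0137). Slc45a4 had 330.1, 331 and 269.5 in restimulated cultures, against 2182, 744 and 1195 in pretreated cultures (-1.96 ± 0.30, adjusted p = 0.0115). The groups were far apart in both, and these are the falls called without the restimulated C array. Slc46a3 had 139, 65.5 and 97.3 in restimulated cultures, against 1208, 203 and 539 in pretreated cultures, where the letters spread widely (-2.23 ± 0.50, adjusted p = 0.0399; called in 1 of the 12 fits without 1 array). The other probe sets of Slc45a4 were at -1.23, not called, and -1.30, called, and that of Slc29a3 was at -0.84 and not called. The other falls were Slc16a6 (-1.83 ± 0.36), Slc29a3 (-1.65 ± 0.39), Slc26a11 (-1.59 ± 0.30) and Slc37a2 (-1.06 ± 0.16). The count depends on single arrays. It was 2 without the restimulated C array, 2 without the pretreated A array, 0 without the pretreated C array, 11 without the pretreated B array and 13 without the restimulated B array. Over the members the median second response was -0.26, and -0.13 without the restimulated C array, against -0.22 and -0.07 for genes at the same threshold.

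**Figure D3:**
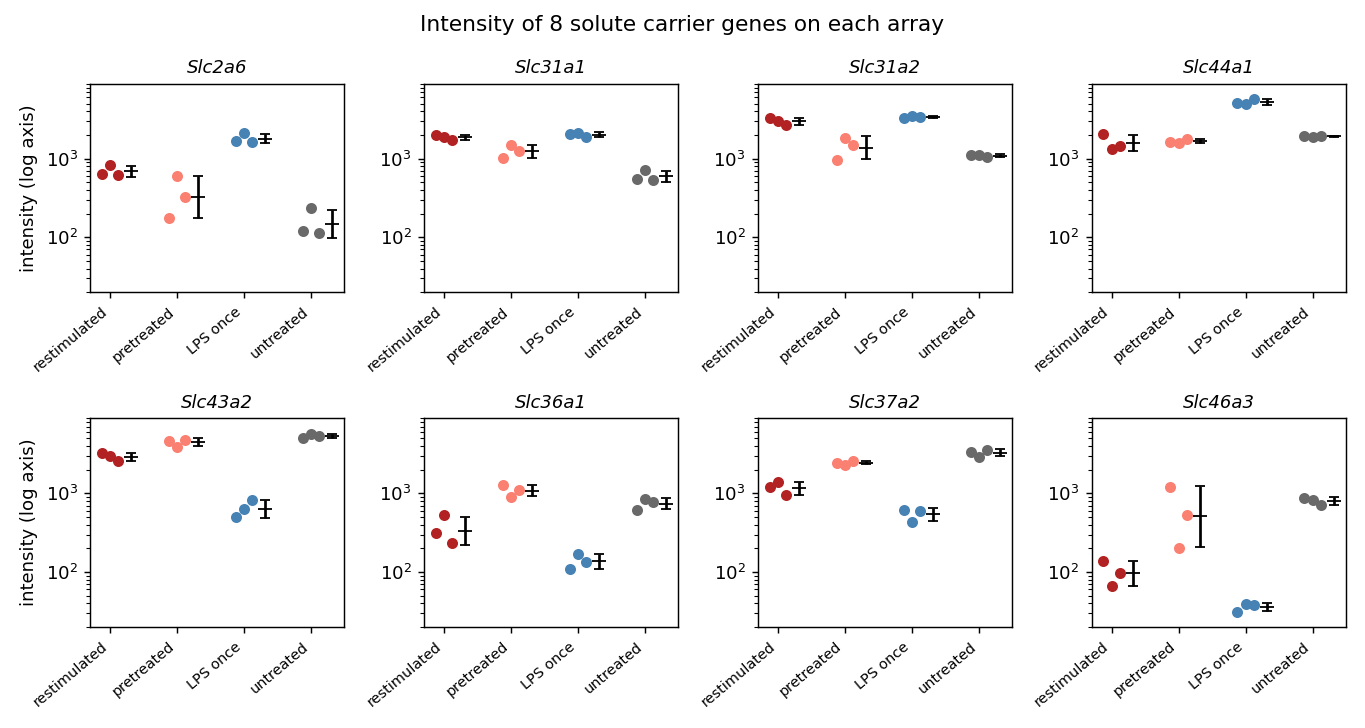
Points give the intensity of 8 solute carrier genes on each array on a log axis, colored by group, with the bar beside each group at the mean and 1 SD computed on the log2(intensity + 16) scale (n = 3). The copper carriers Slc31a1 and Slc31a2 overlap between restimulated and LPS once cultures, Slc2a6 and Slc44a1 are lower in restimulated than in LPS once cultures, and Slc43a2, Slc36a1 and Slc37a2 are higher.

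The interaction tests whether a gene responded differently to LPS after pretreatment. It was positive for 5 members, 3.16%, against 1.24% of all genes and 2.52% of genes at the same threshold, and negative for 6, 3.80%, against 1.45% of all genes and 2.89% at the same threshold. Positive values belonged to genes that fell less the second time. Slc43a2 had a second response of -0.61 ± 0.17, against a first response of -3.05 ± 0.17, a difference of 2.44 ± 0.24 (adjusted p = 0.00137); its other probe sets were at 2.12, called, and 1.31, not called. Slc37a2 had an interaction of 1.50 ± 0.23 (adjusted p = 0.00922) and Slc25a45 of 1.97 ± 0.36 (adjusted p = 0.0201). For Slc26a11 it was 1.91 ± 0.43 (adjusted p = 0.0403), a call lost with the letter as a block (adjusted p = 0.0535). For citrin, Slc25a13, it was 1.26 ± 0.20 (adjusted p = 0.0112), but this gene is a member through its untreated level alone, and a high untreated level makes the interaction positive, so nothing is read from that test. Its intensities were 87.8, 79.3 and 63.8 in restimulated cultures, against 104, 84.7 and 80.3 in pretreated cultures. Without the restimulated C array the count of positive members was 9 in place of 5, and it was 3 without the untreated A or the untreated C array.

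Negative interactions belonged to genes that rose less, or not at all, the second time. The choline transporter Slc44a1 had 2079, 1335 and 1429 in restimulated cultures, against 1625, 1603 and 1799 in pretreated cultures, a second response of -0.08 ± 0.14, and an interaction of -1.53 ± 0.20 (adjusted p = 0.0053). Slc49a4 had 172, 169 and 87.8 in restimulated cultures, against 188, 152 and 188 in pretreated cultures, and an interaction of -1.59 ± 0.28 (adjusted p = 0.0179). In both genes the restimulated and pretreated arrays overlapped. Slc2a6 had 640.0, 821 and 620.4 in restimulated cultures, against 175, 608 and 327 in pretreated cultures, where the A array was lowest. Its interaction was -2.44 ± 0.55 (adjusted p = 0.0411), called in 3 of the 12 fits without 1 array. Slc12a4 (-1.28 ± 0.27), Slc31a1 (-1.14 ± 0.21) and the scaffold Slc9a3r1, or Nherf1 (-1.56 ± 0.29), were negative too, and the other probe sets of Slc44a1 (-0.14) and Slc31a1 (-0.78) were not called. Slc9a3r1, which is named after the exchanger it binds and carries no solute, had a first response of 0.82 ± 0.21, short of 2-fold, while its other probe sets were at 0.89 and, called, at 1.17. It had 1151, 1264 and 967 in restimulated cultures, against 1899.8, 1694 and 2068 in pretreated cultures. Among members not let in by 1 group, the interactions of Slc43a2, Slc37a2 and Slc44a1 were the ones called in all 12 fits without 1 array; the count of negative members was 3 without the pretreated C array, 2 without the untreated A array and 1 without the untreated C array. With the letter as a block, Slc7a5 (-1.92, adjusted p = 0.0341), Slc16a3 (-1.51, adjusted p = 0.042) and Slc7a7 (-1.47, adjusted p = 0.0326) were called negative and Slc36a4 (1.33, adjusted p = 0.0123) positive.

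**Figure D4:**
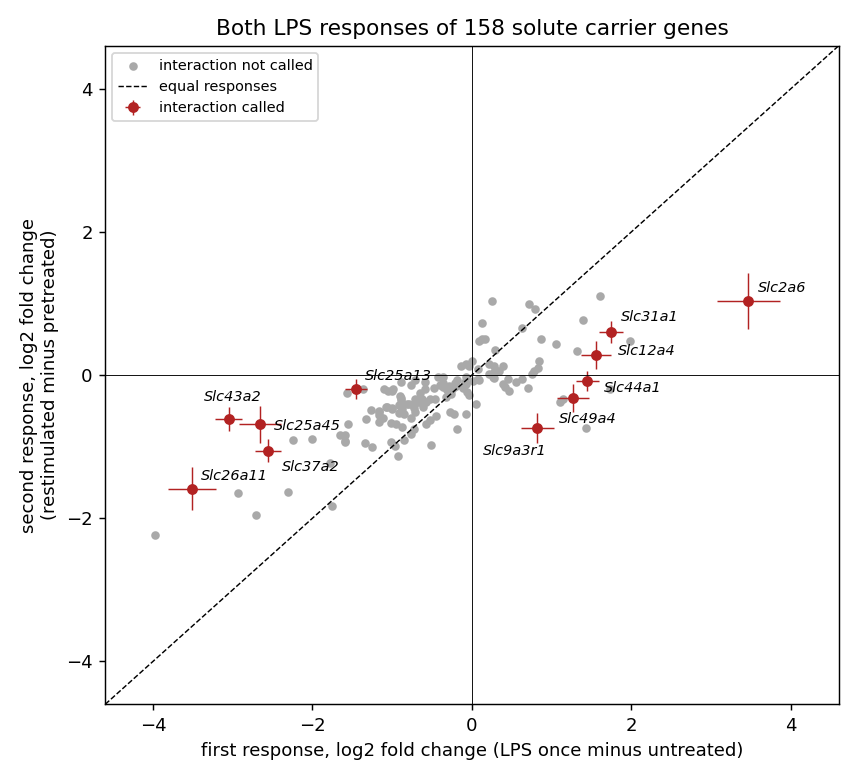
Each point is 1 of the 158 solute carrier genes, with its log2 fold change in the first response on the x axis and in the second response on the y axis, and the 11 genes with a called interaction are in red with standard errors (n = 3 arrays per group). Those 11 lie off the dashed line of equal responses, with Slc2a6 at 3.47 and 1.03 on the right and Slc43a2 at -3.05 and -0.61 on the left.

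The level that cells reached after LPS with or without pretreatment compares restimulated with LPS once cultures. Of the members 12 were higher, 7.59%, against 2.51% of all genes and 5.10% of genes at the same threshold, and 9 were lower, 5.70%, against 3.21% of all genes and 6.36% at the same threshold. Among them, 11 had fallen in the first response and were higher here, and 6 had risen in it and were lower here. Both comparisons share the LPS once arrays with opposite sign, which favours opposite calls, and the share over all genes was not counted. Slc43a2 had 3284, 2977 and 2577 in restimulated cultures, against 494, 631 and 824 in LPS once cultures (2.18 ± 0.17, adjusted p = 9.04e-05). Slc25a45 had 1148, 855 and 546 in restimulated cultures, against 216, 141 and 166 in LPS once cultures (2.14 ± 0.26, adjusted p = 0.000637). The heme carrier Slc48a1 had 2623, 3988 and 1810.4 in restimulated cultures, against 926, 937 and 859 in LPS once cultures (1.54 ± 0.25, adjusted p = 0.00333). Every restimulated array of these genes, C included, was above every LPS once array. The other Slc48a1 probe set had a log2 difference of 1.02 and was not called, and those of Slc43a2 were at 1.92, called, and 1.00, not called. Slc29a3 (1.64 ± 0.39), Slc8b1 (1.51 ± 0.35), Slc36a4 (1.45 ± 0.23), Slc45a4 (1.34), Slc2a9 (1.24), Slc36a1 (1.20), Slc26a11 (1.19), Slc25a12 (1.11) and Slc37a2 (1.09) were higher as well, although the other probe sets at the threshold were not called for Slc29a3 (0.11) or Slc45a4 (0.64 and 0.02). The count of members higher was 22 without the restimulated C array and 7 without the restimulated B array.

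The members lower after pretreatment and LPS included the zinc exporter Slc30a4, the lactate carrier Slc16a1 and the choline transporter Slc44a1, while their relatives Slc30a6 (-0.66), Slc16a3 (-0.78) and Slc44a2 (0.76) were not called. Slc30a4 had 121, 169.8 and 103 in restimulated cultures, against 684, 648 and 601 in LPS once cultures (-2.19 ± 0.28, adjusted p = 0.00089). Slc44a1 had 2079, 1335 and 1429 in restimulated cultures, against 5106, 4973 and 5761 in LPS once cultures (-1.72 ± 0.14, adjusted p = 0.000118). Slc16a1 had 95.9, 256 and 89.7 in restimulated cultures, against 1082, 788 and 289 in LPS once cultures (-2.13 ± 0.50, adjusted p = 0.0185). Slc30a4 and Slc44a1 left a wide gap between the groups, and in Slc16a1 the restimulated B array, at 256, came close to the LPS once C array, at 289. Slc49a4 (-1.77 ± 0.20), Slc12a4 (-1.39 ± 0.19) and Slc9a3r1 (-1.42 ± 0.21) kept their calls in all 12 fits without 1 array. The zinc importer Slc39a10 (-1.53 ± 0.41), Slc2a6 (-1.37 ± 0.39) and Slc7a7 (-1.12 ± 0.30) were called in 7, 3 and 5 of them, the other probe sets of Slc39a10 (-0.80), Slc7a7 (-1.02) and Slc44a1 (-0.68) were not called, and Slc2a6 and Slc7a7 were not called without the restimulated C array. For the copper carriers the arrays of both groups overlapped, and the test was not passed, at a log2 difference of -0.11 ± 0.15 for Slc31a1 (adjusted p = 0.712) and -0.18 ± 0.19 for Slc31a2 (adjusted p = 0.632). With the letter as a block, Slc7a5 was also called lower (-1.32, adjusted p = 0.0142).

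Some members varied more between the letters of the replicates than between treatments. The span of the 3 letter means was larger than the span of the 4 group means in 20 of 158 members, with a median of 0.34 log2 units for letters and 0.96 for groups. Slc13a3, the sodium-coupled dicarboxylate transporter for succinate and related acids, had a letter span of 4.12. Its intensities (A, B and C) were 2410.2, 58.0 and 229 in restimulated, 3253, 39.0 and 519 in pretreated, 639, 109 and 365 in LPS once and 339, 24.0 and 199.8 in untreated cultures, with A highest and B lowest in each group. The betaine and GABA transporter Slc6a12 had 46.4, 1385 and 299 in restimulated, 43.7, 1213 and 447 in pretreated, 34.6, 127 and 87.2 in LPS once and 23.5, 80.8 and 46.6 in untreated cultures, with B highest and A lowest. The glycine transporter Slc6a9 ran in the same order, with 97.9, 674 and 142 in restimulated, 92.8, 652 and 176 in pretreated, 66.2, 179.5 and 148 in LPS once and 61.2, 110.2 and 90.6 in untreated cultures.

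Slc6a13, which adjoins Slc6a12 on chromosome 6 and carries GABA, was also highest on the B array of the restimulated and pretreated cultures, at 36.6, 202 and 99.9 in restimulated and 30.8, 143 and 50.3 in pretreated cultures. In untreated cultures it was at 24.6, 24.7 and 27.8 and in LPS once cultures at 28.4, 28.1 and 28.8. None of these 4 genes was called in a comparison, and the limma standard error of Slc13a3 was 1.64. The glutamine carrier Slc38a2 (Snat2) was low on every A array, with 957, 2471 and 2247 in restimulated, 920.0, 2282 and 1840.4 in pretreated, 486, 3947 and 3897 in LPS once and 897, 2385 and 2276 in untreated cultures. The marker sums of the letters differed too, with fibroblast markers low on the C arrays and S100a9 lowest on the A array in each group; their part in the letter differences of the carriers was not tested.

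**Figure D5:**
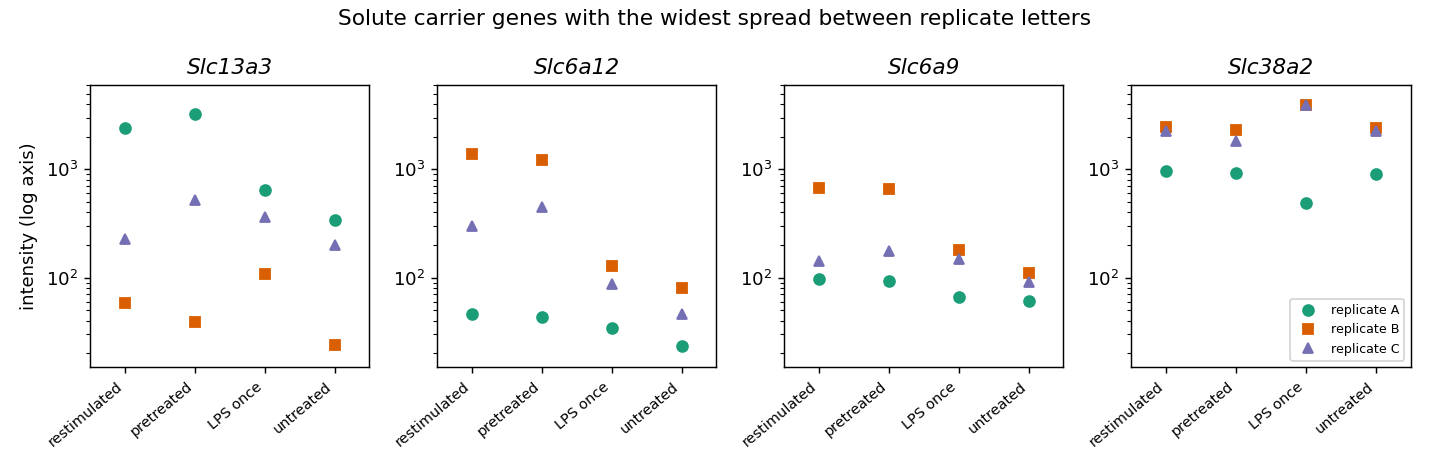
Points give the intensity of 4 solute carrier genes on a log axis in each group, with a symbol and color for each replicate letter. Within a gene the letters keep their order across groups for Slc13a3 (A above C above B), Slc6a12 and Slc6a9 (B above C above A), and A is lowest in every group for Slc38a2.

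A few genes are members through 1 array. Slc2a12 was at 314.5 on the restimulated C array and between 36.9 and 56.0 on the other 11, and Slc5a9 at 449.3 on the same array and between 40.1 and 59.2 elsewhere. Without that array neither gene reached the threshold in any group. The same holds for Slc15a2 without the untreated A array (302), for Slc22a4 without the pretreated B array (223), for Slc29a4 without the LPS once C array (157), for Slc6a13 without the restimulated B array (202) and for Slc24a3 without the untreated A or C array. Of these genes Slc24a3 was called, in the pretreatment comparison, and Slc15a2, a peptide transporter, was called lower in the first response with the letter as a block (-1.27, adjusted p = 0.166 without and 0.0196 with it).

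Other transport genes were counted from lists of related carriers, pumps and partners. In the first response, 9 of 32 carriers named outside the Slc system fell and none rose, with Mfsd12 at -2.98, Mfsd6 at -2.57, Mfsd11 at -2.50, the heme exporter Flvcr1 at -2.32, the lysosomal cystine exporter Ctns at -1.88 and the phosphate exporter Xpr1 at -1.54 on the log2 scale. Of 45 ABC transporters, 1 rose (Abcc4, 1.26) and 6 fell, of 20 subunits of the vacuolar proton pump 1 fell (Atp6v0a1, -1.53), and of 15 Slco organic anion transporters 1 rose (Slco3a1, 3.93). Of 12 amino acid response genes 1 rose (Atf4, 1.16), and of 5 partners of carriers 1 fell (Ostm1, -1.42). Among all the 18193 genes, 9.16% fell and 3.92% rose in that comparison. In the second response 2 of the 32 carriers named outside the Slc system fell, Mfsd11 at -1.05 and Flvcr1 at -1.42, against 1.32% of all genes.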

How the data were processed

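Total RNA of 12 cultures was labelled by the Affymetrix procedure, per the labels' protocols. The deposited values are linear intensities, with 1 value for each probe set on each array. Which program and scaling the authors used for them is not given in the sources analysed. The table holds 45101 probe sets, 64 of them controls. Of the others, 34945 carry 1 gene symbol, 932 several and 9160 none here, and 34741 were matched by Entrez identifier to the RefSeq table of GRCm38.p6. The single-symbol probe set of highest mean intensity stood for each of 18193 genes, and 91 of the 158 members had more than 1 probe set. Levels of different probe sets were not compared.

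Intensities were transformed as log2(intensity + 16), which understates changes of dim genes, with no further normalization. limma 3.58.1 in R 4.3.3 fitted 4 group means to the 12 arrays (8 residual and 1.71 prior degrees of freedom), after a test on simulated data. The number of arrays limits the precision. Replicate letters were checked for pairing: over 8371 genes the deviations from group means correlated at r from 0.302 to 0.707 for 18 same-letter pairs and from -0.483 to -0.0202 for the 36 others. The letters therefore pair the arrays, and fits with the letter as a block are given where they change a call.

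The members, substrate classes and lists were chosen with earlier results of these data known, and Slc66a1, Slc66a2, Slc49a4 and Slc4a1ap were placed in a class after values were seen. The text names, by rule, the largest 6 rises and falls per comparison, up to 3 called members per class, the 6 members with the highest mean and a set list of well-known carriers; other called members are named as well, after their values were seen. Alternatives were the pseudocount, the scaling, filters, the choice of probe sets, the arrays fitted, the block and leaving out each array. Promoter windows, credited to RefSeq, were found for 122 of the 158 members.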

Additional observations from a re-analysis of the deposited data

Results flagged for a closer look

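In 11 members the second response differed from the first by more than 2-fold, by limma's test of that difference (adjusted p under 0.05 over all genes). The log2 difference, second minus first response, was 2.44 for Slc43a2, 1.97 for Slc25a45, 1.91 for Slc26a11, 1.50 for Slc37a2 and 1.26 for Slc25a13, and it was -2.44 for Slc2a6, -1.59 for Slc49a4, -1.56 for Slc9a3r1, -1.53 for Slc44a1, -1.28 for Slc12a4 and -1.14 for Slc31a1. Slc25a13 is a member through its untreated level alone, which makes this difference positive, so nothing is read from its test.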

How the results depend on the processing

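The limits are 3 arrays per group, an unknown upstream scaling, dim values near the array medians and the restimulated C array. With the replicate letter as a block, 2 members were higher in the pretreatment effect, and it changed no other member's call beyond those named in the report; of the 75 named called results 74 kept their call. Mid-range scaling gave 22 members higher and 20 lower in the first response, 2 higher in the pretreatment effect and 4 higher in the second response; quantile normalization gave 3 higher in the second response. Without the 2-fold minimum, 21 were higher and 65 lower in the first response, 2 higher in the second response, 9 positive in the interaction, and 28 higher and 16 lower in the level after LPS. A pseudocount of 64 left 0 higher and 0 lower in the pretreatment effect (10 and 10 had an unadjusted p under 0.05 in limma's fit with a pseudocount of 16) and 3 positive interactions. The mean of all probe sets gave 2 higher in the pretreatment effect, 3 negative interactions and 5 lower in the level after LPS. Fits on the arrays of the groups compared gave 0 higher and 1 lower in the pretreatment effect, 0 higher and 0 lower in the second response and 7 higher in the level after LPS. Without probe sets of shared targets, with a mean of 100 over the 12 arrays or with a group mean of 200, 1 member was lower in the pretreatment effect. Leaving out 1 array in turn gave 9 to 14 higher and 30 to 35 lower in the first response, 0 to 1 higher and 1 to 3 lower in the pretreatment effect, 0 to 4 higher and 0 to 13 lower in the second response, 3 to 9 positive and 1 to 6 negative interactions, and 7 to 22 higher and 6 to 9 lower in the level after LPS. No named called result changed direction under any of these settings, and the causes of these shifts were not tested.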
